A study of Mus musculus with 8 samples.

Results

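The insulin-like growth factor (IGF) axis was examined through 10 genes, namely the ligands Igf1 and Igf2, the receptors Igf1r and Igf2r, the binding protein genes Igfbp2, Igfbp3, Igfbp4, Igfbp5 and Igfbp6, and the adaptor gene Irs1. They were chosen by gene symbol, and where a symbol had several probe sets of its own, the brightest on average was taken. All 10 were found among the 19938 genes measured. The samples were whole uteri of 8 female mice on day 3.5 of pseudopregnancy, 4 controls of the genotype Pgr+/+ Foxa2+/+ and 4 Foxa2-deleted animals of the genotype PgrCre/+ Foxa2flox/flox, with 1 array per uterus. Mating with vasectomised males preceded sampling in both groups, and the vaginal plug marked day 0.5. Cre was expressed from the progesterone receptor gene Pgr, so that deletion was directed to cells that use Pgr, and the deleted animals kept 1 Pgr allele without the Cre insertion. The controls carried neither Cre nor floxed alleles, so the effects of Foxa2 loss, of Cre and of the Pgr allele cannot be told apart. The age of the animals was not given in the sources used here.

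IGF1 and IGF2 are small secreted growth factors that signal mainly through the receptor tyrosine kinase IGF1R. The IGF2 receptor has no kinase and carries IGF2 to lysosomes for breakdown, and the IGF binding proteins hold the ligands in extracellular fluid, which can limit or prolong their action. In the uterus IGF1 is made largely by the stroma under estrogen and is known as a mitogen of the epithelium. FOXA2, the deleted factor, is a forkhead protein that regulates transcription in the epithelium of the uterine glands.

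Values are log2 intensities made with RMA, so that a difference of 1 is a doubling of the intensity, and a change is the deleted mean minus the control mean. The threshold for a call was an adjusted p under 0.05 in a limma fit over all genes. Foxa2 itself lay between 8.61 and 8.82 in controls and between 8.20 and 8.22 in deleted uteri, so all 8 arrays followed their labels. Smooth muscle and stromal markers, which define the bulk of the organ, had list means of 11.18 to 11.72 and 11.19 to 11.64 on the 8 arrays, whose medians over all probe sets lay between 8.25 and 8.32. The deleted arrays were less alike than the controls, with correlations between arrays across genes of 0.981 to 0.990 against 0.996 to 0.997. Probe sets differ in how brightly they bind, so the levels of different genes are not ranked here.

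Of the 10 members, Igfbp3 fell, and the other 9 did not pass the test. That is 10% of the members, beside 11.1% of all genes tested that were called in either direction and 6.58% that were called lower. The members called higher numbered 0, beside 4.5% of all genes (limma), and at an unadjusted p under 0.05 there were 1 higher and 3 lower. The share at an unadjusted p under 0.05 was 40% of the members and 31.5% of all genes. The median change of the members was -0.075, with 4 positive and 6 negative changes, and the median over all genes was 0.0075. The members' share of calls was thus near that of all genes.

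**Figure D1:**
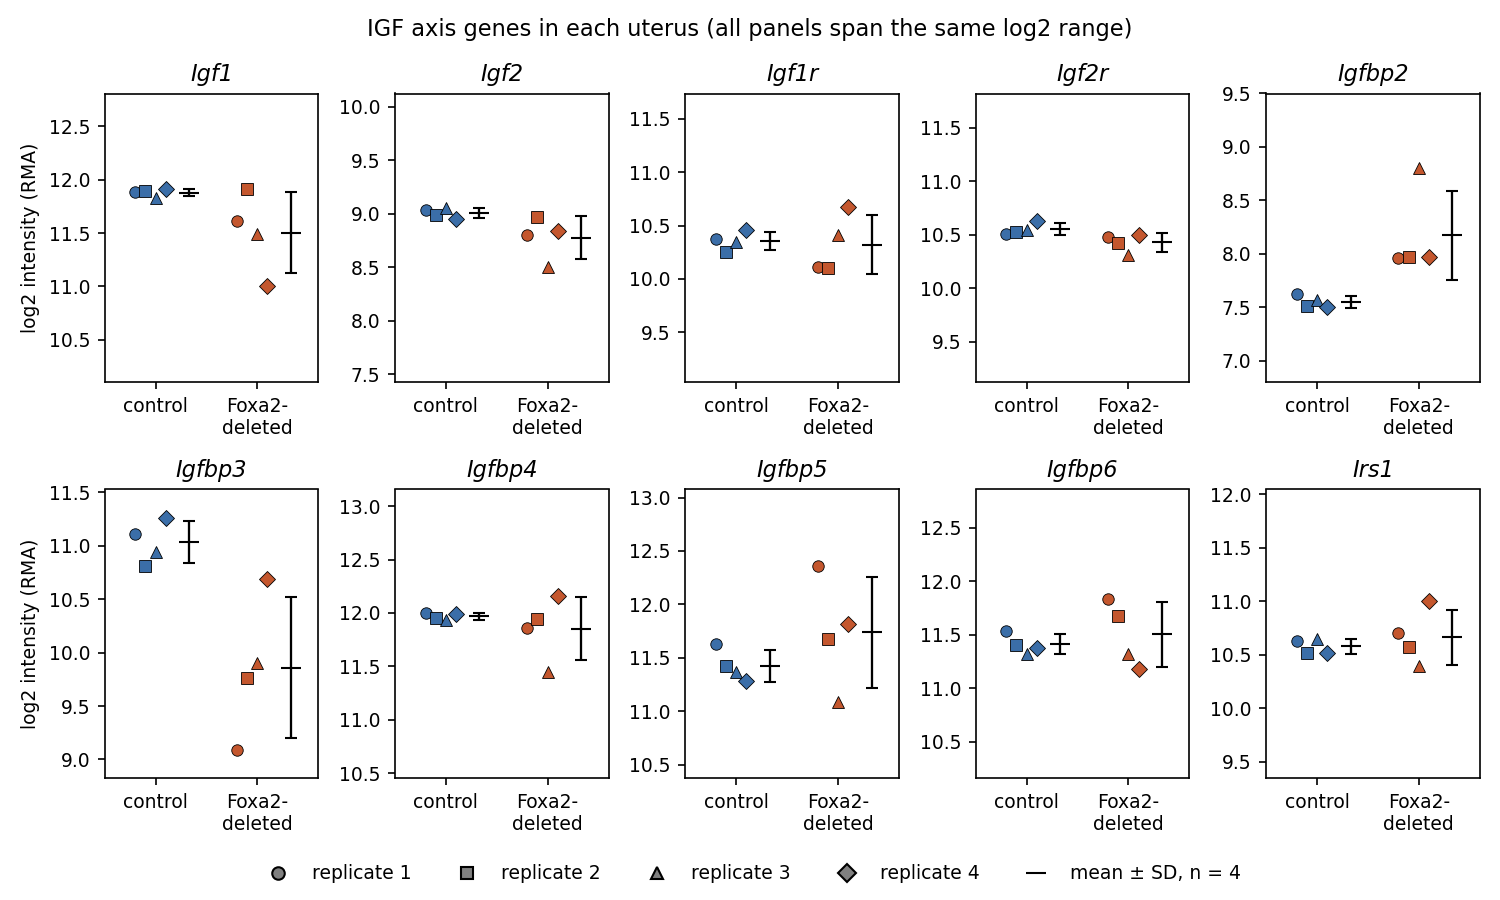
log2 intensity of each of the 10 genes in every uterus, controls in blue and Foxa2-deleted in orange, with replicate numbers as symbols and the mean ± SD (n = 4) beside each group; all panels span the same log2 range. The 4 deleted uteri lie below the controls for Igfbp3 (9.09 to 10.69 against 10.81 to 11.26) and above them for Igfbp2 (7.96 to 8.80 against 7.50 to 7.62), and the deleted points are more spread in every panel.

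Igfbp3 encodes the main carrier of IGFs in blood, which is also made locally in many tissues. Its probe set read 11.11, 10.81, 10.94 and 11.26 in control replicates 1 to 4. In Foxa2-deleted replicates 1 to 4 it read 9.09, 9.76, 9.90 and 10.69. All deleted uteri lay below all controls, replicate 1 lowest by far and replicate 4 only 0.12 under the lowest control. Igfbp3 thus went from 11.03 ± 0.20 (SD, n = 4) to 9.86 ± 0.66 (SD, n = 4), a 2.25-fold decrease. The log2 change was -1.17 (SE 0.28, 95% interval -1.81 to -0.53, adjusted p = 0.035, limma), in size the 216th largest of the 19938 genes. The call was lost on leaving out any 1 of the 8 arrays other than Foxa2-deleted replicate 4 (adjusted p from 0.051 to 0.102). In these 7 runs the change lay between -1.24 and -0.91, with unadjusted p from 0.0031 to 0.0094 beside 0.0027 with all arrays (limma). The genes called in all also varied, from 556 without control replicate 4 to 2947 without Foxa2-deleted replicate 2. Without Foxa2-deleted replicate 4 the Igfbp3 change was -1.45 (adjusted p = 0.0082).

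Igfbp2 encodes a binding protein with some preference for IGF2 that is made by epithelia and stroma in the reproductive tract. It read 7.62, 7.51, 7.57 and 7.50 in control replicates 1 to 4 and 7.96, 7.97, 8.80 and 7.97 in Foxa2-deleted replicates 1 to 4. The groups did not overlap, and replicate 3 stood 0.83 above the other deleted arrays, which were nearly equal. The change of 0.63 (SE 0.18, 95% interval 0.22 to 1.03) gave a ratio of 1.54 and an adjusted p of 0.054 (limma), and so missed the threshold. Without Foxa2-deleted replicate 3 the change was smaller and the spread much smaller, with a change of 0.42 (SE 0.05, adjusted p = 0.0025). Leaving out Foxa2-deleted replicate 2 or 4 also brought it past the threshold, with adjusted p of 0.047 and 0.048. Its unadjusted p did not fall in these runs, at 0.0065 and 0.0071 beside 0.0065 with all arrays (limma). More genes were called in all, 2947 and 3059 in place of 2209, and the adjustment depends on all genes. Without each of the other 5 arrays in turn the adjusted p ran up to 0.132.

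**Figure D2:**
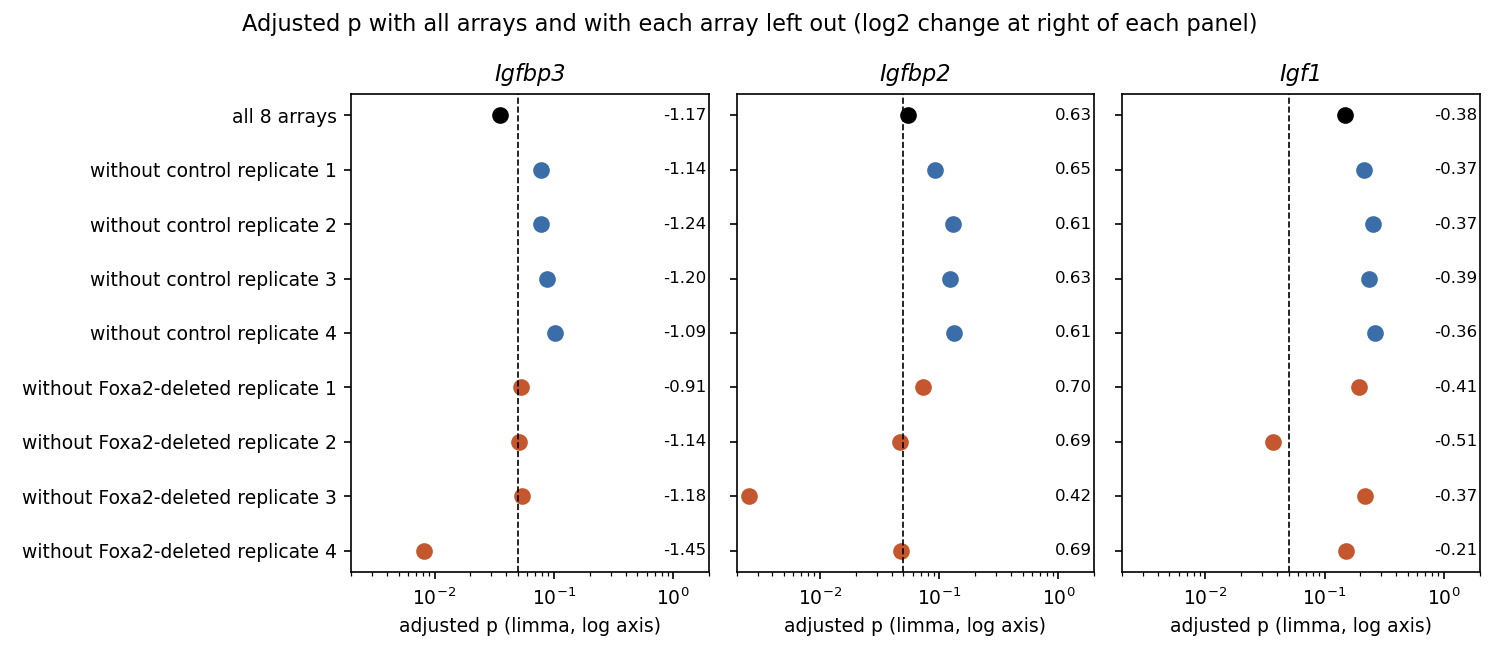
Adjusted p (limma, log axis) for Igfbp3, Igfbp2 and Igf1 with all 8 arrays (black) and with each control (blue) or Foxa2-deleted array (orange) left out, the dashed line marking 0.05 and the log2 change printed at the right. Igfbp3 passes with all arrays and without Foxa2-deleted replicate 4, Igfbp2 passes without Foxa2-deleted replicate 2, 3 or 4, and Igf1 passes without Foxa2-deleted replicate 2.

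The 250 bases before the RefSeq transcription start (assembly GRCm38.p6) are shown for Igfbp3 and Igfbp2, the members with the largest changes and of opposite sign. Igfbp3 is taken at chr11:7213924-7214173 (minus strand) and Igfbp2 at the first of its 2 listed starts, at chr1:72824230-72824479 (plus strand). Capitals mark the core promoter letters found, which are TATATA for Igfbp3 and GGGCGG, the GC box bound by SP1, for Igfbp2.
Igfbp3: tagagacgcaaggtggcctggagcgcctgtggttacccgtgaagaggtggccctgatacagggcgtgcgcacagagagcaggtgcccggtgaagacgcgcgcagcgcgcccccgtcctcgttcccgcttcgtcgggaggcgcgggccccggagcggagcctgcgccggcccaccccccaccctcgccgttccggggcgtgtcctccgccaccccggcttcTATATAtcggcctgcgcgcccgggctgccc
Igfbp2: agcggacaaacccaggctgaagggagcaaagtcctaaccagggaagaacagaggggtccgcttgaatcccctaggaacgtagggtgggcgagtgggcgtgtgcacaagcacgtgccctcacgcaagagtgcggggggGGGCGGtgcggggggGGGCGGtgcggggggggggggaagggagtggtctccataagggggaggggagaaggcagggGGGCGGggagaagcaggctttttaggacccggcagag
The Igfbp3 sequence holds TATATA starting 30 bases before the transcription start, letters that 5.25% of the 32851 promoters in the table hold on either strand. The Igfbp2 sequence holds GGGCGG at 3 places, 113, 98 and 37 bases before the start, and 32.7% of all promoters hold these letters at least once. The forkhead letters TGTTTAC and TATTTAC, searched on both strands, were in 0 of the 14 promoters listed for the 10 members, and 3.17% and 2.73% of all promoters hold them. Whether FOXA2 binds further away was not measured here.

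In gene order Igfbp3 lies next to Igfbp1, on the opposite strand, and Igfbp2 lies next to Igfbp5, also on opposite strands, with no other protein-coding gene between them in either pair. Igfbp1, whose product is the binding protein of decidual stroma in primates, read 6.85 to 7.03 in controls and 6.94 to 7.14 in deleted uteri. Its change of 0.10 (SE 0.06, 95% interval -0.03 to 0.23, adjusted p = 0.274) stood beside the -1.17 of its neighbour. No detection calls were given, so it is unknown whether the Igfbp1 probe set lies above background and could show a fall.

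Igfbp5, a binding protein of stroma and smooth muscle that attaches to the extracellular matrix, read 11.63, 11.42, 11.37 and 11.28 in control replicates 1 to 4. Foxa2-deleted replicates 1 to 4 read 12.36, 11.68, 11.09 and 11.82. Replicates 1, 2 and 4 were above every control and replicate 3 was below every control. The change was 0.31 (SE 0.23, 95% interval -0.20 to 0.83, adjusted p = 0.366, limma). It was 0.11 without Foxa2-deleted replicate 1 (adjusted p = 0.712) and 0.53 without replicate 3 (adjusted p = 0.072), so its size turned on single animals. Among controls the SD was 0.15, and among deleted uteri it was 0.52.

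Igfbp4 and Igfbp6 encode binding proteins that mostly restrain IGF action, IGFBP6 with a strong preference for IGF2. Igfbp4 was close to constant in controls, at 11.93 to 12.00, and lay at 11.86, 11.94, 11.45 and 12.16 in Foxa2-deleted replicates 1 to 4. Replicates 1 and 3 were below and replicate 4 above all controls, and the change was -0.12 (SE 0.13, 95% interval -0.41 to 0.18). Igfbp6 read 11.32 to 11.54 in controls and 11.84, 11.68, 11.32 and 11.18 in Foxa2-deleted replicates 1 to 4. Here replicates 1 and 2 were above every control and replicate 4 was below, and the change was 0.09 (SE 0.14, 95% interval -0.22 to 0.40). The adjusted p were 0.560 and 0.667. The sign of the Igfbp4 change turned without Foxa2-deleted replicate 3 (0.019) and that of Igfbp6 without Foxa2-deleted replicate 1 (-0.019).

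Igf1 had tightly grouped controls, at 11.88, 11.89, 11.83 and 11.91. Foxa2-deleted replicates 1 to 4 read 11.61, 11.91, 11.49 and 11.00. Replicate 2 equalled the highest control, while the other 3 deleted uteri lay below every control, replicate 4 by 0.83. The change of -0.38 (SE 0.16, 95% interval -0.74 to -0.01) did not pass (adjusted p = 0.149, limma; unadjusted p = 0.045). Without Foxa2-deleted replicate 2 it was -0.51 (adjusted p = 0.037), and without Foxa2-deleted replicate 4 it shrank to -0.21 (adjusted p = 0.152). Without any 1 array other than replicate 2 the adjusted p lay between 0.152 and 0.265.

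Igf2, the fetal growth factor expressed from the paternal allele, read 9.04, 8.99, 9.05 and 8.95 in control replicates 1 to 4. Foxa2-deleted replicates 1 to 4 read 8.80, 8.97, 8.50 and 8.84. As with Igf1, replicate 2 was within the control range and the other 3 were below it, here with replicate 3 lowest. The change was -0.23 (SE 0.09, 95% interval -0.44 to -0.02, adjusted p = 0.127; unadjusted p = 0.034), and it did not pass under any alternative run (adjusted p from 0.055 to 0.246). Without Foxa2-deleted replicate 3 it was -0.14 (adjusted p = 0.160).

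Igf1r, the signalling receptor, read 10.25 to 10.46 in controls. Foxa2-deleted replicates 1 to 4 read 10.11, 10.10, 10.41 and 10.67, so replicates 1 and 2 lay below every control and replicate 4 above. The change was -0.035 (SE 0.12, 95% interval -0.31 to 0.24, adjusted p = 0.866), and its sign turned on leaving out Foxa2-deleted replicate 1 (0.036) or 2 (0.039). Igf2r, the clearance receptor, was lower in all deleted uteri, with 10.48, 10.42, 10.31 and 10.50 in replicates 1 to 4 against 10.51 to 10.63 in controls. The gap between the groups was 0.01, and the change of -0.12 (SE 0.06, 95% interval -0.25 to 0.00) did not pass (adjusted p = 0.168). With Igfbp3 and Igfbp2 it made 3 of 10 members whose groups did not overlap, beside 21.1% of all genes.

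Irs1 encodes the substrate through which IGF1R and the insulin receptor recruit PI3 kinase. It read 10.52 to 10.65 in controls and 10.70, 10.57, 10.39 and 11.00 in Foxa2-deleted replicates 1 to 4, with replicate 3 below and replicates 1 and 4 above the controls. The change was 0.09 (SE 0.12, 95% interval -0.18 to 0.35, adjusted p = 0.638), and it turned to -0.027 without replicate 4. Irs1 was the only member with a second probe set, with a mean of 7.13, whose change was 0.04 (SE 0.09).

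The deleted uteri were spread more widely than the controls. The SD was larger among deleted uteri than among controls in 10 of 10 members, beside 70.3% of all genes. For 9 of the 10, all but Igf2r, it was over 3 times the control SD. The share of all genes past that ratio was not counted, so this is not shown to be particular to the members. No single uterus stood apart for most members. Foxa2-deleted replicate 1 lay farthest from the control mean for 3 members (Igfbp3, Igfbp5 and Igfbp6), replicate 3 for 4 (Igf2, Igf2r, Igfbp2 and Igfbp4) and replicate 4 for 3 (Igf1, Igf1r and Irs1). Replicate 2 was farthest for 0 of the 10 and nearest for 5. The uterus with the lowest Igfbp3, replicate 1, had the highest Igfbp5 and Igfbp6, and the uterus with the lowest Igf1, replicate 4, had the highest Igf1r and Irs1. These are single animals, and no test was made of such pairs.

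**Figure D3:**
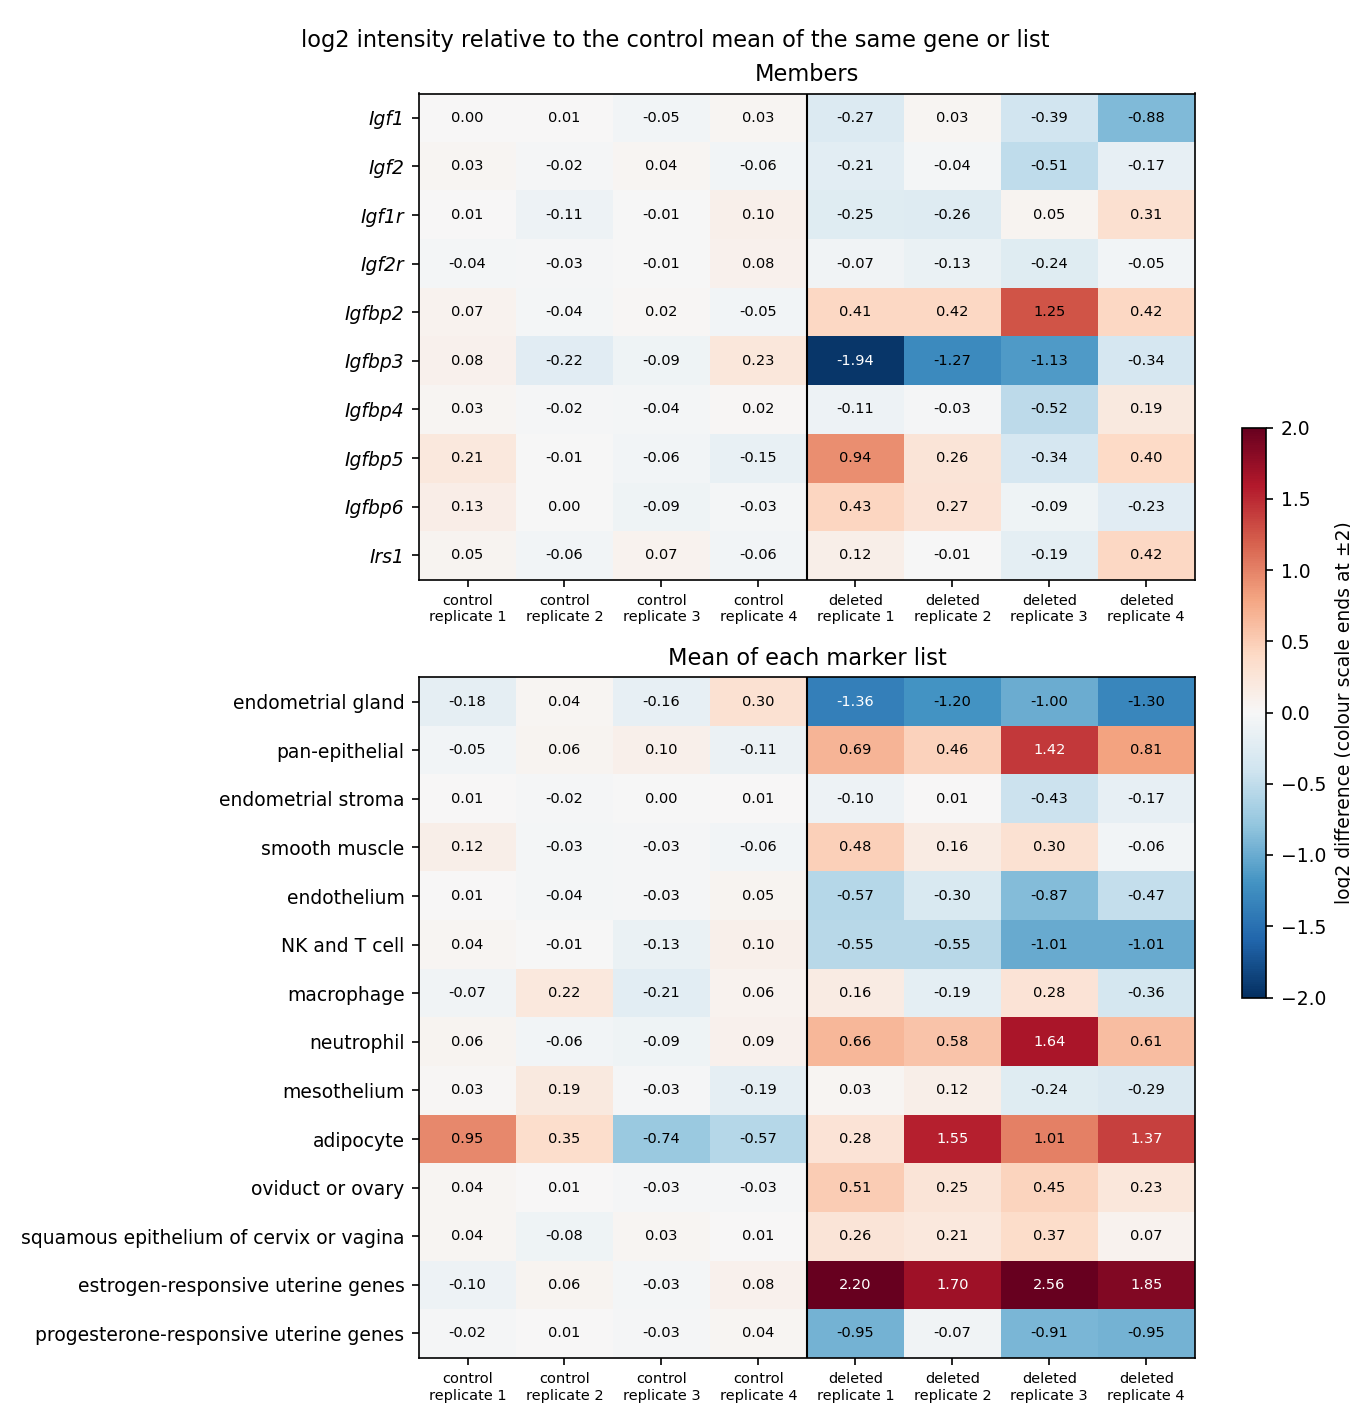
log2 intensity relative to the control mean for the 10 members (top) and for the mean of each marker list (bottom), with columns for control and Foxa2-deleted replicates 1 to 4 and the value printed in each cell; the colour scale ends at 2 in either direction. Igfbp3 is lowest on deleted replicate 1 (-1.94) and Igfbp2 highest on deleted replicate 3 (1.25), the array on which several lists are also highest, the pan-epithelial and neutrophil lists (1.42 and 1.64) among them.

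In whole tissue, fewer cells of a type and less RNA per cell cannot be told apart. Marker lists of the cell types of the uterus moved with the genotype, and their levels per array are set beside the members. Of 12 endothelial markers 8 fell, Pecam1 by 0.66 (SE 0.10) and Tie1 by 0.71 (SE 0.11) among them, and at an unadjusted p under 0.05 there were 10 lower and 0 higher. The list mean ran from 10.60 to 10.69 in controls and from 9.77 to 10.34 in deleted uteri. Of 12 stromal markers 1 fell, the nuclear receptor gene Nr2f2 (by 0.42, SE 0.10), and at an unadjusted p under 0.05 there were 5 lower and 0 higher, with list means of 11.61 to 11.64 and 11.19 to 11.63. Against controls, Foxa2-deleted replicates 1 to 4 had endothelial means of -0.57, -0.30, -0.87 and -0.47, where Igfbp3 lay at -1.94, -1.27, -1.13 and -0.34. The endothelial and stromal lists were lowest on replicate 3 and Igfbp3 on replicate 1, and the part of either cell type in the Igfbp3 value was not tested.

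The array with the highest Igfbp2, Foxa2-deleted replicate 3, was also the highest array for the means of the pan-epithelial, neutrophil, macrophage, squamous epithelium and estrogen-responsive lists. Pan-epithelial markers, of which 6 of 12 rose (9 higher and 1 lower at an unadjusted p under 0.05), had means of 0.69, 0.46, 1.42 and 0.81 above controls in Foxa2-deleted replicates 1 to 4, with list means of 9.97 to 10.18 in controls and 10.54 to 11.50 in deleted uteri. Neutrophil markers, of which 2 of 8 rose (Cxcr2 by 2.33, SE 0.43, and Ly6g by 1.21, SE 0.25), and 6 were higher at an unadjusted p under 0.05, lay at 0.66, 0.58, 1.64 and 0.61, with list means of 7.34 to 7.52 and 8.001 to 9.06. Igfbp2 lay at 0.41, 0.42, 1.25 and 0.42, and the part of these cells in its value was not tested.

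Smooth muscle markers had means of 0.48, 0.16, 0.30 and -0.06 in Foxa2-deleted replicates 1 to 4. Of 10, 1 was called higher (Actg2, by 0.51, SE 0.13), with 5 higher and 1 lower at an unadjusted p under 0.05. On the same arrays Igfbp6 lay at 0.43, 0.27, -0.09 and -0.23, and Igfbp5 at 0.935, 0.255, -0.335 and 0.395. On replicate 3 the list was above the control mean and both genes were below it. The part of smooth muscle in either gene's value was not tested. Adipocyte markers differed between uteri of both groups, with list means of 8.03 to 9.72 in controls and 9.05 to 10.32 in deleted uteri. The median change of the 5 measured was 1.105, with 3 higher and 0 lower at an unadjusted p under 0.05. Of the 5, 1 was called higher, Fabp4 (by 1.55, SE 0.42, adjusted p = 0.0496, limma), and its groups overlapped. Fat attached to the uterus also makes IGF axis transcripts, and its part in the members' values was not tested. Of the remaining cell type lists, 5 of 10 gland markers and 7 of 10 NK and T cell markers fell, beside 6.58% of all genes. The gland markers that fell include Foxa2, the deleted gene itself. Oviduct or ovary markers had 1 of 8 higher and squamous epithelium markers 3 of 8 higher. Macrophage and mesothelium markers had 0 of 9 and 0 of 4 called (limma), with 1 of 9 and 0 of 4 at an unadjusted p under 0.05.

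Lists of hormone-responsive genes give the setting in which the axis was read. Of 12 estrogen-responsive genes 9 rose, Clca1 (by 4.55, SE 0.32) and Lcn2 (by 4.25, SE 0.12) among them, with a median of 1.80 and means of 2.20, 1.70, 2.56 and 1.85 above controls on Foxa2-deleted replicates 1 to 4. Igf1, which estrogen induces in the uterus, lay at -0.27, 0.03, -0.39 and -0.88 on the same arrays. Of 13 progesterone-responsive genes 7 fell and 1, Pgr, rose, with a median of -0.60 and list means at -0.95, -0.07, -0.91 and -0.95. Foxa2-deleted replicate 2, at -0.07, was also the array on which Igf1 and Igf2 lay within the control range, while its Igfbp3 lay at -1.27. Both lists were drawn up with earlier results of these data known, so their direction is no independent evidence, and circulating hormones were not measured here.

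Beyond the members, 42 of 51 other genes of the pathway had a probe set with a single symbol. Of these 3 rose, 5 fell and 34 did not pass, which is 19% beside 11.1% of all genes, and their median change was 0.03. At an unadjusted p under 0.05 there were 6 higher and 7 lower of the 42, beside 31.5% of all genes, so this list did not exceed all genes there.

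The list of genes for proteases of the binding proteins and for inhibitors of these proteases gave 2 of the 3 increases. They were 2 of the 5 genes in this list, 1 a protease gene and 1 an inhibitor gene, beside 4.5% of all genes called higher. Htra1, which encodes a secreted serine protease that cleaves IGF binding proteins, read 10.07 to 10.19 in controls and 11.52, 10.70, 11.02 and 10.90 in Foxa2-deleted replicates 1 to 4. It rose by 0.92 (SE 0.15, 95% interval 0.58 to 1.25, adjusted p = 0.011, limma), and the call held with each array left out (adjusted p up to 0.042). Stc2, which encodes stanniocalcin 2, an inhibitor of the IGFBP protease PAPP-A, read 8.90 to 9.11 in controls and 9.83, 9.88, 11.21 and 9.60 in Foxa2-deleted replicates 1 to 4. Its rise of 1.15 (SE 0.31, adjusted p = 0.046) did not hold when Foxa2-deleted replicate 1 or any 1 of the controls was left out (adjusted p up to 0.116). The related Stc1 was widely spread in deleted uteri, from 8.74 to 10.26 against 8.37 to 8.89, with a change of 0.55 (SE 0.30, adjusted p = 0.242). Pappa and Pappa2, which encode the proteases themselves, had changes of 0.28 (SE 0.25) and 0.10 (SE 0.08) and did not pass. The other binding protein genes Igfals, Igfbpl1 and Igfbp7 had changes of 0.18 (SE 0.09), 0.09 (SE 0.06) and -0.07 (SE 0.06), and of this list of 4, which includes Igfbp1, 0 were called (limma) and 0 had an unadjusted p under 0.05.

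Receptor and adaptor genes gave 2 decreases among 9, with 0 higher and 3 lower at an unadjusted p under 0.05. The third was the adaptor Grb10, with a change of -0.25 (SE 0.08, adjusted p = 0.073, limma), which did not pass. Gab1, a docking protein that links receptor kinases to PI3 kinase and SHP2, read 10.37 to 10.47 in controls and 9.76 to 10.09 in deleted uteri. It fell by 0.47 (SE 0.07, adjusted p = 0.0079), a call that held with each array left out. Insr, the insulin receptor, which also binds IGF2, fell by 0.21 (SE 0.05, adjusted p = 0.037), from 10.53 to 10.65 in controls down to 10.35 to 10.50. That call held only without Foxa2-deleted replicate 4 when single arrays were left out (adjusted p up to 0.105). The adaptor Irs2 had a change of 0.06 (SE 0.07).

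In the PI3 kinase, AKT, FOXO and mTOR arm 2 of 15 genes fell, which is 13.3% beside 11.1% of all genes called. The kinase genes Pik3ca, Pdpk1, Akt1 and Akt2 did not pass. At an unadjusted p under 0.05 the arm had 1 higher and 2 lower. The higher gene was Foxo1, with a change of 0.255 (SE 0.10, adjusted p = 0.124, limma). Tsc1, which encodes hamartin, a brake on mTOR complex 1, fell by 0.33 (SE 0.06, adjusted p = 0.012), and Mtor, the kinase it restrains, by 0.29 (SE 0.06, adjusted p = 0.027). The Tsc1 call held with each array left out, and that of Mtor did not once Foxa2-deleted replicate 1 or any 1 of the controls was removed (adjusted p up to 0.082). Akt1 had a change of 0.020 (SE 0.05). In the RAS and MAPK arm, Map2k1 and Sos1 had changes of 0.42 (SE 0.14, adjusted p = 0.085) and -0.16 (SE 0.06, adjusted p = 0.097). The count there was 0 of 2 called (limma), with 1 higher and 1 lower at an unadjusted p under 0.05.

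Growth hormone, which drives Igf1 in liver, signals through GHR and JAK2, and the 2 genes moved in opposite directions. Ghr read 9.85 to 10.37 in controls and 10.50 to 10.81 in deleted uteri and rose by 0.62 (SE 0.12, adjusted p = 0.017). Removing control replicate 2, 3 or 4 ended this call (adjusted p up to 0.060). Jak2, which also serves the prolactin and interleukin receptors, fell by 0.53 (SE 0.07, adjusted p = 0.0064), from 11.00 to 11.27 in controls to 10.55 to 10.74 in deleted uteri. The transcription factor genes Stat5a and Stat5b had changes of 0.18 (SE 0.08) and 0.05 (SE 0.05) and did not pass. At an unadjusted p under 0.05 the 5 genes of this arm had 2 higher and 1 lower. Igf2bp1 and Igf2bp3, which encode proteins that bind Igf2 mRNA, had changes of 0.10 (SE 0.05) and 0.015 (SE 0.07), with 0 of 2 called (limma) and 0 of 2 at an unadjusted p under 0.05.

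**Figure D4:**
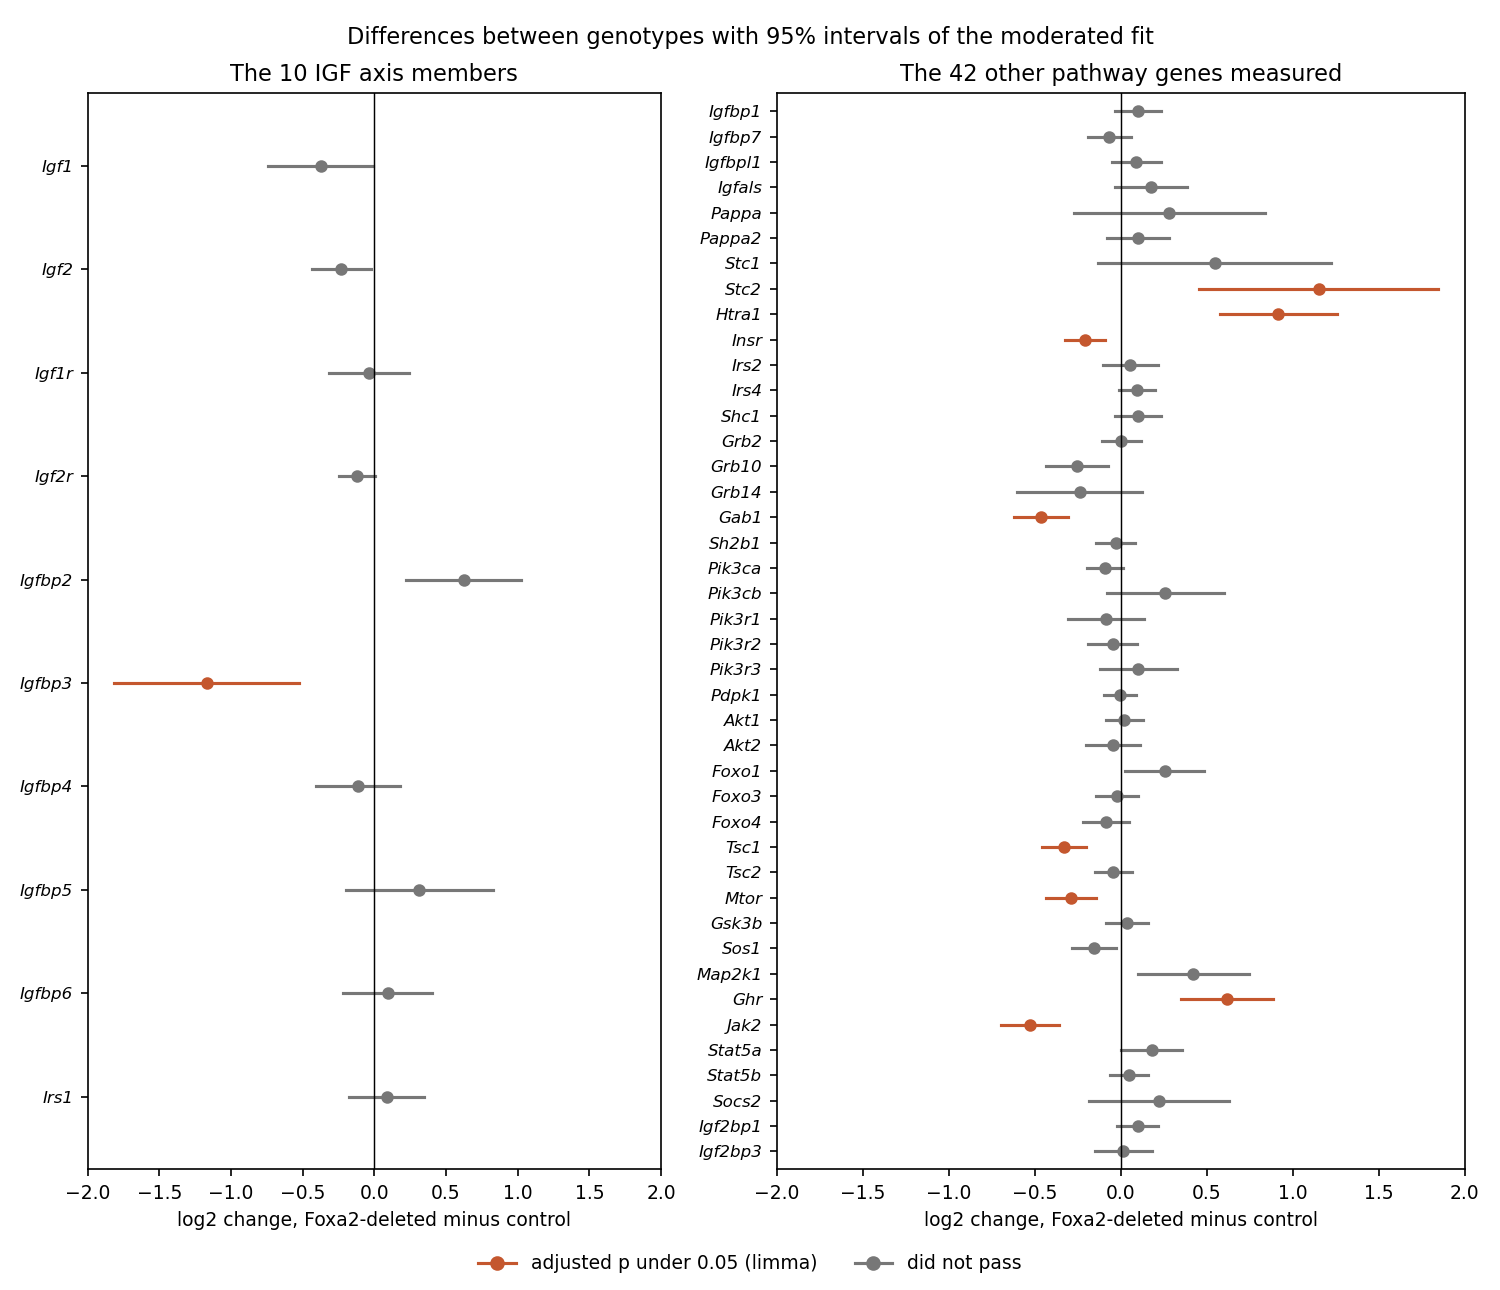
log2 change (Foxa2-deleted minus control) with its 95% interval from the moderated fit for the 10 members (left) and the 42 other pathway genes measured (right), orange where the adjusted p was under 0.05. Igfbp3 is the member past the threshold, at -1.17, and Stc2, Htra1 and Ghr are the pathway genes called higher, at 1.15, 0.92 and 0.62.

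The genes whose profile over the 8 arrays was nearest to that of Igfbp3 were sought over all genes, by the root mean square difference of log2 values centred on each control mean. They were Cldn8, which encodes a tight junction claudin (difference 0.28), Plcz1, which encodes a phospholipase C (0.30), and Slain1, which encodes a microtubule plus-end protein (0.30). Cldn8 read 8.91 to 9.26 in controls and 7.56, 7.55, 7.41 and 8.77 in Foxa2-deleted replicates 1 to 4. Plcz1 read 7.27 to 7.42 and then 6.09, 6.10, 6.31 and 6.84, and Slain1 read 9.40 to 9.66 and then 7.92, 8.33, 8.07 and 8.64. In each, as in Igfbp3, Foxa2-deleted replicate 4 lay nearest the controls. The genes were picked for their likeness to Igfbp3 on these arrays, so this shared feature is no independent result.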

How the data were processed

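Total RNA (150 ng) of each whole uterus was labelled with biotin by a whole-transcript protocol and hybridised to 1 array, per the labels' protocols. The authors' deposited values are log2 intensities made with RMA, per the submitters' processing notes, which also name limma. Of versions, genome build and annotation nothing is given in the sources used here, and no detection call comes with the values. The lowest value was 2.73 and the highest 14.33, and array medians lay between 8.25 and 8.32. Of 35556 probe sets 21789 had 1 gene symbol in the platform annotation held by GEO, 1621 several and 12146 none. The 1-symbol probe sets were reduced to 19938 genes by the highest mean. Genotypes were compared with lmFit and eBayes in limma 3.58.1 (R 4.3.3) without covariates, with Benjamini-Hochberg adjustment over all genes. The steps were tested on simulated data in which both groups had the same spread. They were not tested under the wider spread that the deleted uteri show. The labels call the replicates biological, so p-values measure the spread between animals, and 4 arrays a group limit the precision. The genes named are the 10 members, Foxa2 and Pgr, up to 4 called genes of each other list (or the 2 with the smallest p), and the 3 genes nearest to a called member. Further names, such as list members given with values that did not pass, were added after their values were seen. Members and lists were chosen with earlier results of these data known. Alternatives covered scaling, filters on dim genes, probe set choice, variance trend, array weights, a replicate block and leaving out each array. Promoter sequences are RefSeq's on GRCm38.p6, matched by symbol for 10 of 10 members, and gene order is from the same assembly.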

Additional observations from a re-analysis of the deposited data

Results flagged for a closer look

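Of the 20 groups of 4 values that the 10 members give, 1 held a value far from the other 3. Igfbp2 read 8.80 on Foxa2-deleted replicate 3, against 7.96 to 7.97 on the other deleted arrays, a gap of 0.988 of the group's range, which is past the 95% critical value of Dixon's test. Chance alone gives about 1 in 20 such groups.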

How the results depend on the processing

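Over 16 alternatives, 142 of 159 values of single members kept their sign and their side of the threshold, and Igfbp2 had no value with the dimmer 50% of genes left out. Igfbp3 passed under all 8 settings that kept the 8 arrays. With single arrays left out the sign turned for Igf1r (-0.15 to 0.039, positive without Foxa2-deleted replicate 1 or 2), Igfbp4 (-0.22 to 0.019), Igfbp6 (-0.019 to 0.20) and Irs1 (-0.027 to 0.18). With array weights 1 member was higher, Igfbp2 (adjusted p = 0.0215), and 1351 genes in all were higher; with the dimmer 50% of genes left out, and so fewer tested, 533 were higher, in place of 898. With 1 array omitted at a time the counts ran from 0 to 1 for members higher, 0 to 1 for members lower, 1 to 5 for other pathway genes higher, 3 to 5 for those lower, 196 to 1374 for all genes higher and 348 to 1777 for all genes lower. The cause was not tested. Same-numbered arrays of the 2 groups did not deviate together (correlations of deviations from -0.05 to 0.06). Of the controls, 0 of 4 were closest to the deleted array of their own number. Whether the numbers pair the animals was not tested in any other way. With the replicate number as a block 435 genes were higher and 627 lower, and 1 and 3 of the other pathway genes, while members stayed at 0 higher and 1 lower. Without detection calls, whether the Igfbp2, Igfbp1 and Plcz1 probe sets lie above background is unknown.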
